A study of Rattus norvegicus with 72 samples.

Results

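Messenger RNA of 7 complement genes, C1qa, C1qb, C2, C3, C6, Cfd and Cfi, was followed in the medial collateral ligament of the rat knee, which joins femur and tibia. The genes were chosen by name, and every array probe named for them by symbol, accession or synonym was taken, which gave 9 probes for the 7 of 36377 genes tested (probes without a gene name were each counted as a gene). C1qa and C1qb had 2 probes each, and the brighter one stood for the gene. All 7 genes passed the filter on dim probes. Cfd was listed in the files under its older name Adn.

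The animals were adult male Sprague-Dawley rats. The groups were ligament that had been cut through, called severed, taken 1, 2, 4, 7, 10 or 14 days after surgery, and ligament from rats with a sham operation on both knees that left it intact, taken on the same days. Both kinds of animal received buprenorphine and isoflurane. Fibroblasts grown out of collagenase-treated ligaments formed a further group, ligament from unmanipulated rats served as a baseline, and a universal rat reference RNA was labelled with either dye. There were 5 samples in each of these groups, except 3 severed and 3 sham samples on day 7 and 3 reference samples for each of the dyes Cy5 and Cy3. The fibroblasts were serial passages, which are not independent cultures, and the reference samples are repeats of 1 RNA, so the spread within these groups may be technical.

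Complement is a cascade of plasma proteins that coats and kills microbes and marks debris for removal. C1q starts the classical pathway, C2 is the protease of its convertase, C3 is the protein on which all pathways converge, and C6 is part of the membrane attack complex that ends the cascade. Cfd is the protease that starts the amplification loop of the alternative pathway and is made in quantity by fat cells, and Cfi is the protease that switches the cascade off by cutting C3b and C4b. The liver makes most of these proteins for plasma, whereas C1q comes chiefly from macrophages and related myeloid cells.

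Levels are log2 normalised intensities of 1 scanner channel, with a floor of 5.64 (an intensity of 50), and differences are log2 differences with their standard error (SE). Column medians of raw intensity lay between 8 and 567 in all but 1 of the 72 columns. Severed day 7 replicate 2 had a median of 13062 and a rank correlation with the median column of only 0.11. The correlation was 0.2 for severed day 4 replicate 4. In 16 columns, including these, stretches of the array did not rank like the other columns and are called misread windows. The scanner software had not found 46.8% of all spots. The 3 sham columns of day 7 differed among themselves by a spread of at most 0.16 (log2), against at least 0.29 for pairs of other ligament groups, and count as 1 sample. The fit nevertheless kept them as 3 columns unless stated otherwise. SE and p values that involve sham day 7, also those over the 6 days, may therefore be too small. Ligament and tendon markers (11 genes, summed) had log2 levels of 15.3 to 18.35 in the ligament columns, but skeletal muscle markers (8 genes, 10.94 to 18.73) and red blood cell markers (7 genes, 13.64 to 18.07) were high there as well. In bulk tissue, fewer cells of a type and less RNA per cell cannot be told apart.

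The spot for C1qb failed most often. It was not found on 14 of 43 arrays, which is 25 of 72 columns, and no intensity there exceeded 342, whereas found spots had at least 405 and a median of 7106. Columns with the same scanner flag on every spot were taken as 1 array, so by this definition both columns of an array fail together. The C3 spot was not found in 18 columns, Cfi in 11, C1qa in 9, Cfd in 5, C2 in 4 and C6 in 1. Levels from such spots were kept in the fit and are pointed out where they matter.

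Cultured fibroblasts were compared with unmanipulated ligament, a bulk tissue that holds other cells as well. The comparison therefore cannot tell whether the cultured cells kept or lost a transcript. Cfd, C1qa and C6 stood at or near the floor in culture, whereas C2 and C3 were well above it. By limma, 3 of the 7 genes were called lower and 0 higher, against 7.34% of all genes called in either direction, 3.66% lower and 3.68% higher. The median log2 difference of the 7 genes was -2.80, and that of all genes was 0.00.

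Of the C1q chains, C1qa was called lower and C1qb was not. C1qa, which encodes the A chain of C1q, had levels of 7.04, 5.64, 5.64, 5.64 and 5.64 in fibroblasts, against 11.77, 12.00, 10.20, 10.83 and 11.16 in unmanipulated ligament. All but 1 of the fibroblast columns stood at the floor, and the groups did not overlap. The difference was -5.27 ± 0.85 (adjusted p = 8.8e-06, limma), and the second C1qa probe gave -3.32 ± 0.88 (adjusted p = 0.00858). C1qb, the B chain, had levels of 11.85, 8.05, 8.09, 8.27 and 8.31 in fibroblasts, against 5.64, 14.00, 12.65, 13.23 and 13.06 in unmanipulated ligament. The highest fibroblast value lay in a misread window and the lowest ligament value came from a spot that was not found, so the groups overlapped through these 2 columns. C1qb differed by -2.80 ± 1.99 (adjusted p = 0.585), or by -4.32 (adjusted p = 5.5e-05) over found spots alone, where 11.1% of genes were called. The second C1qb probe was at or near the floor in both groups with a difference of -0.20 ± 0.52.

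Cfd, the protease of the alternative pathway, was at the floor throughout in culture. Its level was 5.64, the floor, in each of the 5 fibroblast columns, against 12.81, 12.31, 12.21, 12.58 and 12.00 in unmanipulated ligament. One of these, fibroblast replicate 1, was not found and lay in a misread window, and without misread windows the difference for Cfd was still -6.74 ± 0.48. Over all columns it was -6.74 ± 1.03 (adjusted p = 2.55e-06), and -7.90 with a floor of 20, since a value at the floor makes the size of the difference a lower limit. C6, of the terminal pathway, had 5.64, 5.64, 5.64, 5.64 and 6.55 in fibroblasts, against 10.60, 12.18, 9.69, 11.61 and 11.41 in unmanipulated ligament. It differed by -5.27 ± 0.60 (adjusted p = 1.22e-09), and again the groups did not overlap. Fibroblast replicate 3 was not found for C6 or for C1qa, and over found spots alone C6 differed by -5.23 and C1qa by -5.20.

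C2, C3 and Cfi were not called. C2 averaged 8.45 ± 0.16 in fibroblasts and 10.00 ± 0.34 in unmanipulated ligament (SD, n = 5 each), a difference of -1.55 ± 0.70 (SE, adjusted p = 0.214). C3 averaged 7.81 ± 0.11 in fibroblasts and 8.62 ± 0.19 in unmanipulated ligament (SD, n = 5 each), a difference of -0.81 ± 0.71 (SE, adjusted p = 0.723). Cfi averaged 5.94 ± 0.40 in fibroblasts and 7.77 ± 0.64 in unmanipulated ligament (SD, n = 5 each), a difference of -1.84 ± 0.61 (SE). Its adjusted p was 0.0516, but 0.00443 without misread windows and 0.0315 without unmanipulated replicate 5, the lowest of that group. Fibroblast values of all 3 genes lay below every unmanipulated value, as did those of 8.77% of all genes.

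**Figure D1:**
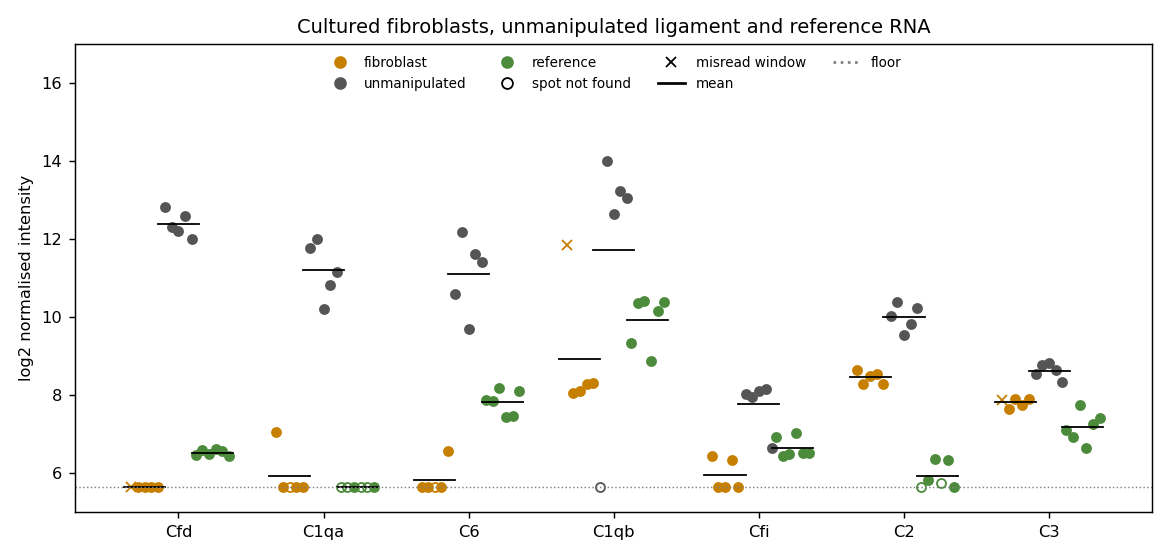
Log2 normalised intensity (vertical axis) of the 7 genes in fibroblasts (5 columns), unmanipulated ligament (5) and reference RNA (6), left to right for each gene. Points are columns, open circles spots that were not found, crosses values in a misread window, bars means and the dotted line the floor at 5.64. Cfd, C1qa and C6 stand at or near the floor in fibroblasts and between 9.69 and 12.81 in unmanipulated ligament.

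Those of the 7 genes called lower in fibroblasts can be set side by side by their start regions. The 300 bases that RefSeq places around the annotated start (250 before and 50 after it, build GRCr8) are shown for C1qa (chr5:154419884-154420183, minus strand), Cfd (chr7:10465447-10465746, minus strand) and C6 (chr2:55573383-55573682, plus strand), and for Cfi (chr2:221063066-221063365, plus strand), the gene that varied across days. Such a window was at hand for 6 of the 7 genes. C1qa and C1qb are neighbours on chromosome 5, at 154417086 to 154419933 and 154402276 to 154407827. Capitals mark matches, on either strand, to 4 patterns. The TATA box was searched as TATAAA, and the CCAAT box by the letters of its name. The GC box was searched as GGGCGG, and the pattern typical of STAT sites as TTCNNNGAA. No match overlapped another in the windows shown.
C1qa: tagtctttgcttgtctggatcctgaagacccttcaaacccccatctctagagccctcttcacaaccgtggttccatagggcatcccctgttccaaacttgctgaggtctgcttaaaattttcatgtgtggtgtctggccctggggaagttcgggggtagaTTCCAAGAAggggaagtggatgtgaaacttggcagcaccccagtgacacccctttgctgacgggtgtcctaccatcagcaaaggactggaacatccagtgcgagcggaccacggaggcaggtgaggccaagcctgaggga
Cfd: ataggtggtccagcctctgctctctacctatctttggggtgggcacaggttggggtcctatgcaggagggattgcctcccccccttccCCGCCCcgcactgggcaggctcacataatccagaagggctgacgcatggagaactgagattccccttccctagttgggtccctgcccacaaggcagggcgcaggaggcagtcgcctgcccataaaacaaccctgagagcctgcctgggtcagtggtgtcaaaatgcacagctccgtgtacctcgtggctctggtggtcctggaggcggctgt
C6: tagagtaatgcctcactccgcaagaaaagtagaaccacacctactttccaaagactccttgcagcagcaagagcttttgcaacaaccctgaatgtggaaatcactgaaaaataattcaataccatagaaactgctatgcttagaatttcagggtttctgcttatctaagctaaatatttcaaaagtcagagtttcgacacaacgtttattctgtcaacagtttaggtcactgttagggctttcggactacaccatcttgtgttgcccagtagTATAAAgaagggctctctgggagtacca
Cfi: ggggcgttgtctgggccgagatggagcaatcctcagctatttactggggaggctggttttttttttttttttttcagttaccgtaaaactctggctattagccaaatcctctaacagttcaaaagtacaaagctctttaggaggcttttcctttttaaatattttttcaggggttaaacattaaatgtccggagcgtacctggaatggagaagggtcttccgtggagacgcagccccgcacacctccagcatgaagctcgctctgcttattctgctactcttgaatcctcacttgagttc
The STAT pattern was found in the C1qa window, a GC box in the Cfd window and TATAAA in the C6 window, where it began at base 273, after the annotated start. The Cfi window held none of the 4 patterns. The Cfi gene is listed from 221062206 to 221104790, so its window lies inside the gene and does not cover the first listed base. Of 33469 rat windows of the same length, 8.87% held the STAT pattern, 33.1% a GC box, 14.2% TATAAA and 37.5% CCAAT. No pattern was shared by the 3 genes called lower in fibroblasts, and a match is a description of letters only.

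Of 46 other complement genes, 41 were tested in the same comparison. One was called higher in fibroblasts and 10 lower, and their median difference was -0.48, against 0.00 for all genes. The gene called higher was Cd55, a surface protein that breaks up convertases (1.48 ± 0.48, adjusted p = 0.0424). Among those called lower, Clu, a fluid-phase inhibitor of the terminal complex, differed by -4.96 (adjusted p = 3.47e-05) and Cfb, the convertase protease of the alternative pathway, by -4.41 (adjusted p = 1.18e-07). C1qc, the C chain of C1q, differed by -3.54 (adjusted p = 1.89e-09), and C1s, a protease of the C1 complex, by -3.63 (adjusted p = 0.0165). The C5a receptor C5ar1 (-4.92), the integrin chain Itgb2 of complement receptor 3 (-4.23) and Cd93 of endothelial and myeloid cells (-5.50) are receptors. The ficolins Fcna (-2.25) and Fcnb (-2.59), which start the lectin pathway, were called lower too. Markers of other cells moved with this comparison. The summed macrophage markers (11 genes) had log2 levels of 10.6 to 15.27 (median 10.72) in fibroblasts, against 14.54 to 16.44 (median 15.44) in unmanipulated ligament, and 6 of the 11 were called lower. Fibroblast replicate 1 had 42 of 103 windows misread. Summed red blood cell markers stood at 9.19 to 11.73 in fibroblasts, against 17.28 to 17.79 in unmanipulated ligament, and 6 of the 7 were called lower. The summed adipocyte markers (7 genes) stood at 8.85 to 9.24 in fibroblasts, against 10.88 to 11.3 in unmanipulated ligament. Only 2 of the 7 were called lower, 3 had differences above 0, and the median was -0.28. Skeletal muscle markers stood at 9.89 to 14.5, against 16.5 to 18.73, and all 8 were called lower. Of the 11 ligament and tendon markers, 4 were called lower and 10 had differences below 0. The part of all these markers in the differences was not tested.

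**Figure D2:**
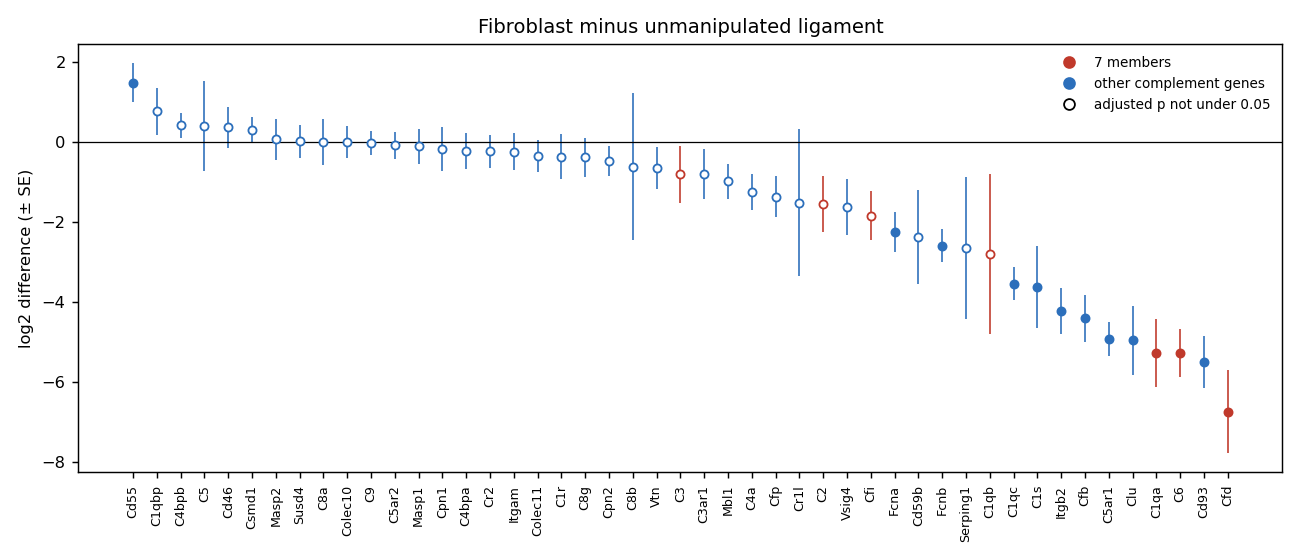
Log2 difference, fibroblast minus unmanipulated ligament, with its SE (vertical axis), for the 7 genes (red) and 40 of the other complement genes (blue), sorted. Filled points have an adjusted p under 0.05 by limma. Cd55 is the only filled point above 0, at 1.48, and Cfd lies lowest, at -6.74.

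Several of these genes were also far above the reference RNA. In unmanipulated ligament against reference RNA, 4 of the 7 genes were called higher and 0 lower, where 27.1% of all genes were called and 12.1% were called higher. C1qa averaged 11.19 ± 0.73 in unmanipulated ligament (SD, n = 5), whereas all 6 reference columns stood at the floor. The difference was 5.55 ± 0.98 (adjusted p = 6.44e-06). Cfd averaged 12.38 ± 0.32 in unmanipulated ligament (n = 5) and 6.52 ± 0.08 in reference RNA (SD, n = 6), a difference of 5.87 ± 1.19 (SE, adjusted p = 6.56e-05). C2 averaged 10.00 ± 0.34 in unmanipulated ligament (n = 5) and 5.92 ± 0.33 in reference RNA (SD, n = 6), a difference of 4.05 ± 0.81 (SE, adjusted p = 4.89e-05). C6 averaged 11.10 ± 0.97 in unmanipulated ligament (n = 5) and 7.82 ± 0.31 in reference RNA (SD, n = 6), a difference of 3.13 ± 0.69 (SE, adjusted p = 0.000244). C3 (1.37 ± 0.82), Cfi (1.17 ± 0.70) and C1qb (1.68 ± 2.29) were not called, though each was under some other setting. Of the other complement genes, 11 of 41 were called higher and 4 lower. Clu (7.71 ± 1.00) and Serping1, the C1 inhibitor (6.64 ± 2.04), had the highest differences, and Masp1, a lectin pathway protease (-2.41 ± 0.51), and C3ar1, the C3a receptor (-1.92 ± 0.72), the lowest.

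Severed and sham ligament were set against each other on each day, which takes out what both operations share. On a given day all severed samples carried one dye and all sham samples the other, so the fit leaned on the 6 reference columns to correct for the dye. For C1qa these reference columns all stood at the floor, so its dye term was 0 and its differences carry no dye correction. C2, Cfd and Cfi averaged 5.92, 6.52 and 6.64 there, not far above the floor, which limits their correction too. With the dye term in the fit, limma called 0 of the 7 genes in any comparison of severed with sham ligament on 1 day or over the 6 days. The share of all genes called was 0% too, although 119 to 1354 genes had an unadjusted p under 0.05, depending on the day. Without the dye term, Cfi was called on days 10 and 14, in opposite directions.

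Cfi, the protease that switches complement off, separated severed from sham ligament on 2 of the 6 days. On day 10 its levels were 6.82, 7.18, 7.74, 7.90 and 7.82 in severed ligament, against 11.63, 10.05, 10.86, 8.58 and 10.46 in sham ligament. Every severed sample was below every sham sample. The difference was -2.75 ± 1.00 (adjusted p = 1, limma), and -2.82 ± 0.61 (adjusted p = 0.0237) without the dye term, where 0.113% of genes were called. An exact permutation test over the 10 samples, two-sided, gave p = 0.00794, the smallest that 5 against 5 allows. This test, here and on other days, shuffled the samples freely. It did not keep together the severed and sham samples that shared an array.

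On day 14 the order was the other way round. Cfi had 10.27, 9.51, 9.49, 8.72 and 10.34 in severed ligament, against 7.62, 7.97, 5.64, 6.57 and 6.43 in sham ligament. Every severed sample was above every sham sample. The difference was 2.89 ± 1.00 (adjusted p = 1, limma), and 2.82 ± 0.61 (adjusted p = 0.00828) without the dye term, where 1.12% of genes were called. The exact permutation test, two-sided, again gave its smallest p, 0.00794. Same-numbered severed and sham samples shared an array on both days. The severed minus sham difference within an array ran between -4.81 and -0.68 on day 10 and between 1.54 and 3.91 on day 14, with the same sign in all 5 arrays of a day. The Cfi spot of replicate 4 was not found on either day, and the difference nearest 0 on day 10, -0.68, comes from it.

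These 2 days carried the dyes in the same way, so the dye cancels in the difference between them. That difference, day 14 minus day 10, was 5.64 ± 0.86 for Cfi (adjusted p = 0.000112, limma), a comparison chosen after the values were seen. It was called for 0.5% of all genes, and for none of the other 6 genes. It was called higher for 0.335% of all genes. Within sham ligament, day 14 minus day 10 was -3.47 ± 0.61 (adjusted p = 0.000554), the 1 call among the 7 genes, where 2.54% of all genes were called, 1.46% higher and 1.07% lower. It was not called with median scaling (adjusted p = 0.154) or in the authors' normalised table (adjusted p = 0.16). Severed and sham groups without overlap were seen for 2.3% of all genes on day 10 and 2.72% on day 14. Summed skeletal muscle markers also differed on day 10, at 10.94 to 15.98 in severed ligament against 16.32 to 18.42 in sham ligament, and all 8 markers had differences below 0, though none was called. Summed red blood cell markers stood at 16.72 to 17.97 in severed and 14.32 to 17.26 in sham ligament on day 10. On day 14 the skeletal muscle sums stood at 15.85 to 18.22 in severed and 16.75 to 18.42 in sham ligament, which overlap. Their part in the Cfi levels was not tested. The muscle markers had a median severed minus sham difference of -4.09 on day 10 and -0.64 on day 14, and day 14 minus day 10 was above 0 for all 8, with a median of 3.66. Whether the day 10 columns carry the right label could not be checked. The directions on day 10 therefore hold for the columns as labelled.

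On day 7, Cfi stood at 9.95, 5.64 and 10.94 in severed ligament, against 7.15, 7.25 and 6.97 in the sham columns that count as 1 sample. The severed value of 5.64 was replicate 2, whose array was misread throughout. The difference was 1.79 ± 1.11 with all columns, 1.79 ± 1.39 with the sham columns as 1 sample, and 3.39 ± 0.93 without misread windows (adjusted p = 0.892). On day 4, Cfi had 10.52, 9.27, 9.82, 6.56 and 8.91 in severed ligament, against 8.34, 7.97, 8.94, 9.01 and 7.75 in sham ligament. The groups overlapped through severed replicate 4, a misread column, and also through replicate 5. The difference was 0.55 ± 1.00.

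On the first 2 sampling days the groups overlapped. On day 1 it had 7.26, 6.97, 7.38, 6.64 and 6.71 in severed ligament, against 8.11, 7.68, 7.99, 8.13 and 6.53 in sham ligament (-0.77 ± 1.00). On day 2 the ranges were 6.11 to 8.72 in severed and 5.64 to 8.56 in sham ligament (0.33 ± 1.00), and 3 of 5 spots of each group were not found. The headers and the labels disagree on the dyes of day 2, and the headers were followed. Over the 6 days the mean severed minus sham difference of Cfi was 0.34 ± 0.37.

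**Figure D3:**
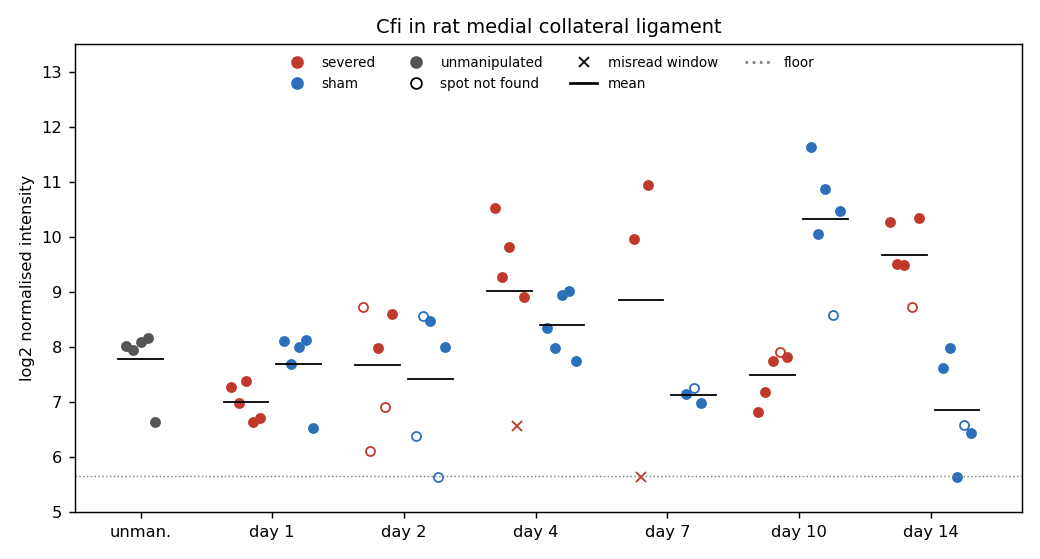
Log2 normalised intensity of Cfi (vertical axis) in unmanipulated ligament and in severed (red, left) and sham (blue, right) ligament on each day. Points are columns, open circles spots that were not found, crosses values in a misread window, bars means and the dotted line the floor. Severed samples lie below all sham samples on day 10 and above all sham samples on day 14.

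Against unmanipulated ligament, which lay at 6.64 to 8.16, Cfi in severed ligament differed by 1.07 ± 0.70 on day 7, -0.28 ± 0.61 on day 10 and 1.89 ± 0.61 on day 14 (adjusted p = 0.505, 0.948 and 0.114). None of the 7 genes was called on day 7, 10 or 14, where 3.38%, 1.11% and 1.34% of all genes were called. By direction these were 1.84% higher and 1.54% lower on day 7, 0.278% and 0.836% on day 10, and 0.605% and 0.737% on day 14. Leaving out misread windows, Cfi was called on day 7 (2.67 ± 0.60, adjusted p = 0.0145, 2 samples left) and on day 14 (1.89 ± 0.47, adjusted p = 0.0104), where 0.476% and 3.75% of all genes were called. Severed day 4 minus severed day 1 was 2.03 ± 0.61 (adjusted p = 0.0641), and 2.64 ± 0.49 without misread windows (adjusted p = 0.000875). Of all genes 1.82% were called there (0.412% higher, 1.41% lower), and 1.93% without misread windows. Sham day 1 and sham day 4 differed from unmanipulated ligament by -0.08 ± 0.61 and 0.63 ± 0.61, with 0 of the 7 genes called on either day against 0% and 0.044% of all genes (on day 4, 0.00825% higher and 0.0357% lower). Same-numbered samples of unmanipulated ligament and sham day 1 had similar levels of some genes. For C6 they were 10.60, 12.18, 9.69, 11.61 and 11.41, against 10.53, 12.65, 9.88, 12.02 and 11.63 on sham day 1. C1qb differed in replicates 1 and 2, where a spot was not found. In that comparison 376 of 36377 genes had an unadjusted p under 0.05 by limma. Whether sham day 1 is independent of unmanipulated ligament was not tested. Ordered by mean level of Cfi, sham day 10 (10.31 ± 1.13) came highest, followed by severed day 14 (9.66 ± 0.67), severed day 4 (9.02 ± 1.50) and severed day 7 (8.84 ± 2.81, n = 3). Neighbours in this order differed by less than the larger of their SDs. The order rests in part on spots that were misread or not found, since over readable spots severed day 7 averaged 10.44 (2 columns), severed day 14 averaged 9.90 and severed day 4 averaged 9.63, against 10.75 for sham day 10. Sham day 4 (8.40 ± 0.56) and unmanipulated ligament (7.77 ± 0.64) followed, and the remaining groups lay between 6.85 and 7.69 (SD, n = 5 unless given).

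Neither C1q chain was called on any day. Over found spots outside misread windows, C1qa means of the 13 ligament groups ran from 10.16 on severed day 1 to 11.84 on severed day 7. On day 1 C1qa had 9.95, 10.22, 9.93, 11.12 and 9.58 in severed ligament, against 11.60, 11.82, 10.11, 11.26 and 10.89 in sham ligament, a difference of -0.98 ± 1.39 that was not called. The second C1qa probe gave -0.67 ± 1.43 on that day. By its brighter probe, C1qa was lower in severed ligament on all 5 arrays of day 1 (-1.65 to -0.14). By the same probe it was higher on all 5 arrays of day 2 (0.55 to 1.84), where replicate 2 was not found. The second probe went the same way on some arrays only. On day 1 its severed level was above sham in replicates 3 (9.08 against 8.58) and 4 (9.92 against 9.53). On day 2 its severed level was below sham in replicates 2 (8.90 against 11.28) and 5 (9.33 against 9.66). The dyes of severed and sham samples, as in the headers, were swapped between these days, and for day 2 the labels give the dyes the other way. For the brighter probe the fit gave 1.09 ± 1.39 on day 2. With the array pairs kept as a block its SE was 0.76 on both days, without a call. C1qb over readable spots averaged 11.94 ± 0.46 in severed and 12.92 ± 0.45 in sham ligament on day 1 (SD, 4 spots each). On day 14 its 2 readable spots a side were 11.44 and 11.89 in severed ligament, against 13.57 and 13.70 in sham ligament. No test over found spots called C1qb on these days, and the fit over all spots gave SE of 3.24.

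C2 and C3 were not called on any day either. C2 averaged 9.76 ± 0.71 in severed and 9.92 ± 0.50 in sham ligament on day 1, and 10.83 ± 0.20 in severed and 10.99 ± 0.27 in sham ligament on day 14 (SD, n = 5 each). Its lowest values, at the floor or 6.12, were spots that were not found or misread on days 4 and 7. C2 on severed day 14 lay above every unmanipulated value, at a difference of 0.83 ± 0.70 (adjusted p = 0.73). C3 on severed day 14 lay below every unmanipulated value, at -0.66 ± 0.71 (adjusted p = 0.829). Groups without overlap in this comparison were seen for 6.16% of all genes. C3 stood at 8.62 ± 0.19 in unmanipulated ligament (SD, n = 5), and its readable spots in the ligament groups averaged 7.41 to 8.76.

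C6 was lower in every severed than in every sham sample on day 4. It had 12.05, 12.25, 11.47, 9.74 and 12.20 in severed ligament, against 12.39, 12.74, 12.33, 12.28 and 12.27 in sham ligament. The 9.74 came from the misread replicate 4, and 12.25 and 12.20 lay just under the lowest sham value. The fit gave -0.56 ± 0.98 (not called), and the exact permutation test without a dye term gave p = 0.00794 for a difference of -0.86, on a day when 0.467% of all genes had groups without overlap. Sham day 4 was also above every unmanipulated value, at 1.30 ± 0.60 (adjusted p = 0.537), where 2.21% of all genes had groups without overlap.

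Cfd leaned the other way from Cfi on days 7 and 14, without a call. On day 7 it had 11.50, 6.63 and 12.19 in severed ligament, against 13.22, 13.32 and 13.31 in the sham columns that count as 1 sample, a difference of -3.15 ± 2.34 with the sham columns as 1 sample. It was -3.15 ± 1.88 with them as 3 columns and -1.41 ± 0.92 without misread windows. On day 14 it had 10.97, 10.77, 12.04, 10.73 and 12.49 in severed ligament, against 11.10, 12.77, 12.54, 13.58 and 13.13 in sham ligament (-1.20 ± 1.68, limma). All 5 severed values were below the sham mean, the groups overlapped, and the exact permutation p without a dye term was 0.0476. On day 2 that p was 0.0238 for a difference of -0.75. Severed was below sham on all 5 arrays of each of these days, by -1.50 to -0.07 on day 2 and by -2.85 to -0.13 on day 14, where the difference nearest 0 is of replicate 1, whose spots were not found. These differences carry no dye correction, and by the headers severed samples were in Cy5 on both days. The fit gave 0.61 ± 1.68 on day 1 and -0.13 ± 1.68 on day 4, with the dyes swapped. With severed samples in Cy5, day 10 gave -0.26 ± 1.68. The permutation test was run for 42 pairs of gene and day without keeping the array pairs, and its p values are not adjusted. Summed adipocyte markers stood at 9.13 to 11.5 in severed and 9.39 to 11.4 in sham ligament on day 14, and at 10.35 to 12.77 in severed and 12.05 to 12.14 in sham ligament on day 7. Their part in the Cfd levels was not tested.

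**Figure D4:**
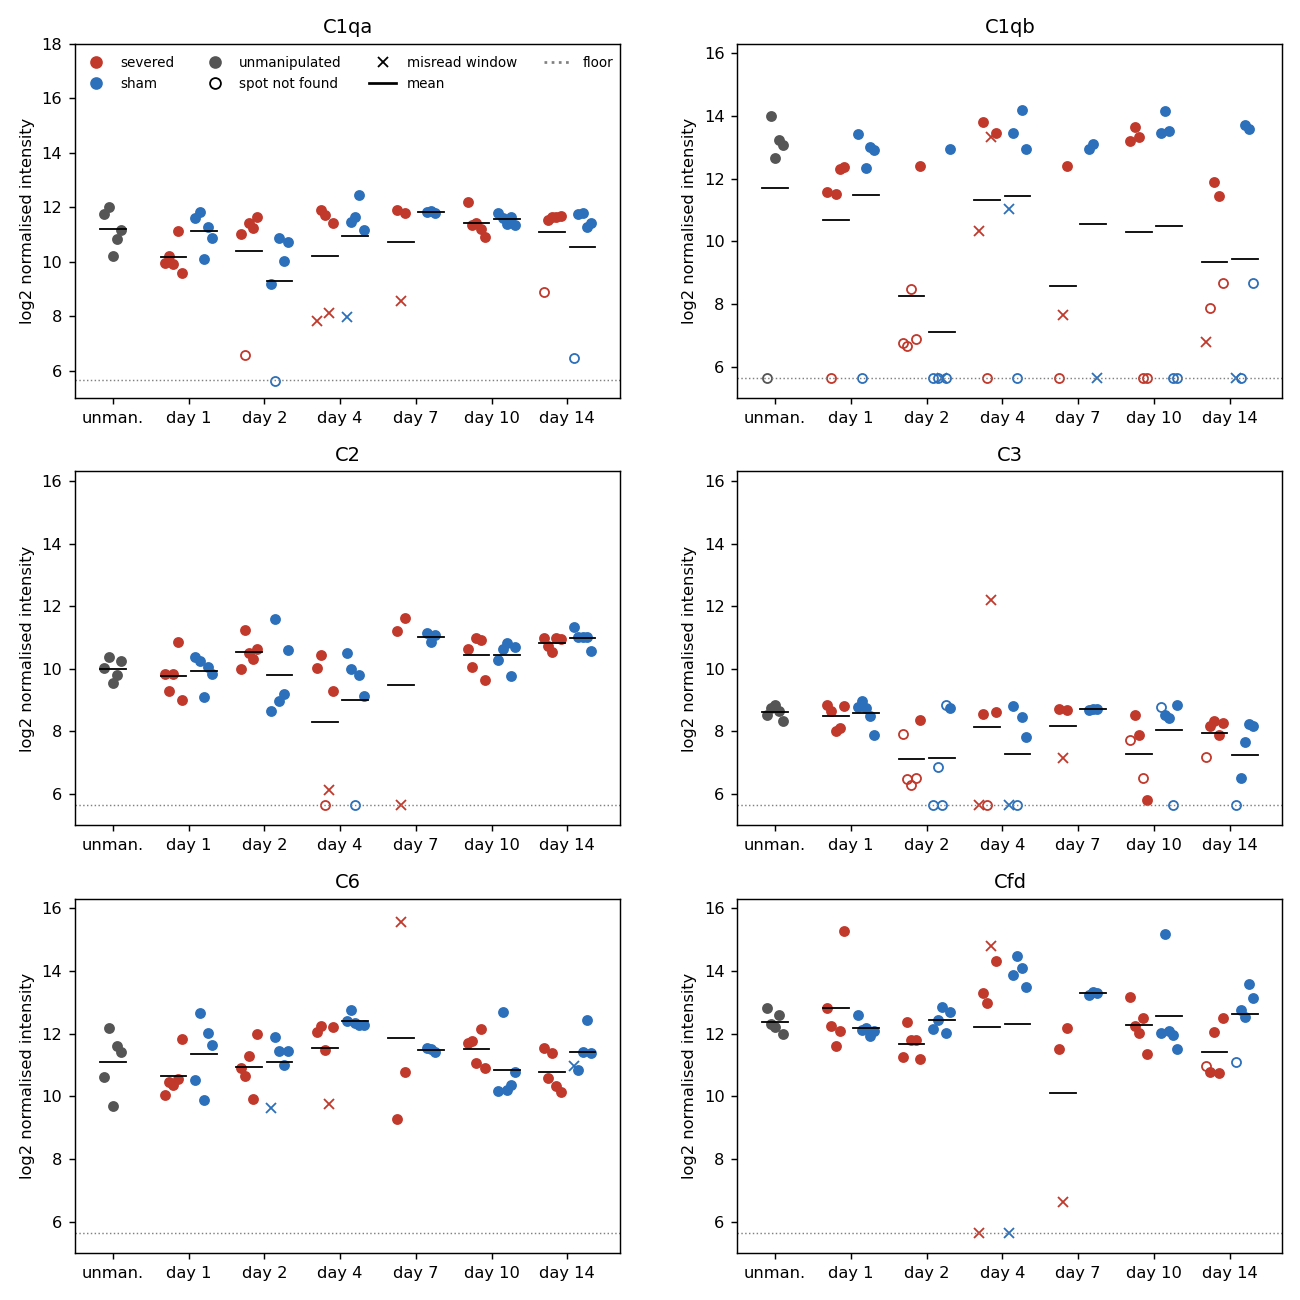
Log2 normalised intensity (vertical axis) of C1qa, C1qb, C2, C3, C6 and Cfd in unmanipulated ligament and in severed (red, left) and sham (blue, right) ligament on each day. Points are columns, open circles spots that were not found, crosses values in a misread window, bars means and the dotted line the floor. Most of the lowest points, among them all C1qb values at 5.64, are open circles or crosses.

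No difference between the severed minus sham response on days 1, 2 and 4 and that on days 7, 10 and 14 was called for any of the 7 genes. It was called for 0 of all 36377 genes too, so the lack of a call is not particular to the 7. Severed day 14 minus severed day 7 was called for none of the 7 either. There 6.71% of all genes were called, 3.58% higher and 3.13% lower. For Cfi, severed day 14 minus severed day 7 was 0.82 ± 0.70, and -0.78 ± 0.60 without misread windows. Among the 41 other complement genes, severed minus sham was called for none on any day. The lowest and highest of their differences were C1s (-1.83 ± 1.68) and C8b (1.27 ± 3.01) on day 1, Cfb (-1.31 ± 0.96) and C3ar1 (1.64 ± 1.02) on day 2, and Clu (-2.03 ± 1.41) and C8b (1.00 ± 3.01) on day 4. They were Serping1 (-2.79 ± 3.23) and Cr1l (1.61 ± 3.36) on day 7, Vtn, which encodes the terminal pathway inhibitor vitronectin (-1.68 ± 0.85), and Clu (0.84 ± 1.41) on day 10, and Clu (-0.96 ± 1.41) and Cd93 (1.44 ± 1.07) on day 14. The same 41 other complement genes were tested between the days. Against unmanipulated ligament, C5ar1 (-2.25 ± 0.49, adjusted p = 0.00496) and Itgb2 (-2.56 ± 0.66, adjusted p = 0.0211) were called lower on severed day 7, a group of 3 columns of which replicate 2 is misread. Without misread windows neither was called (C5ar1 -0.90 ± 0.36, adjusted p = 0.501, and Itgb2 -1.72 ± 0.63, adjusted p = 0.388), whereas Itgb2 was then called lower on severed day 10 (-1.93 ± 0.50, adjusted p = 0.0159). Macrophage markers moved with them, with 2 of 11 called lower and a median of -1.16, or -0.15 without misread windows, and their part was not tested. Cfb fell on severed day 14 (-2.24 ± 0.59, adjusted p = 0.0353), with an adjusted p of 0.0123 without misread windows. On severed day 4 relative to severed day 1, C5ar1 (-2.18), Fcnb (-1.72) and C1qbp (-2.13) were called lower and Colec10, a lectin pathway collectin (1.48), higher. Without misread windows the calls of C5ar1 (-1.75, adjusted p = 0.000199) and Fcnb (-1.51, adjusted p = 0.0409) held, and those of C1qbp (-0.83, adjusted p = 0.0725) and Colec10 (0.68, adjusted p = 0.206) did not. On severed day 14 relative to severed day 7, C4a (-1.91) was called lower and C5ar1 (1.87) higher. Without misread windows C4a was still called (-2.13, adjusted p = 0.029) and C5ar1 was not (0.52, adjusted p = 0.565).

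Across the means of the 13 ligament groups, as a description of 13 points that share arrays and normalisation, Cfi was most like Ankrd50, Atp6v0d2 and Trim2 (Pearson r of 0.92, 0.88 and 0.87, among 15373 named genes). C1qa was most like C1r (r of 0.93), Reck and Nfatc4, C2 like Tent5a (0.95), Hdac2 and Lamb2, C3 like Da2-19 (0.91), Trim41 and Stn1, Cfd like Plaat5 (0.91), Spsb4 and Mtch2, C6 like Foxd2 (0.86), Clcn4 and Olr2-ps, and C1qb like Hnrnph1 (0.9), Fam120b and C17h7orf25. Between the 7 genes themselves r ran from -0.45, for Cfi with Cfd and for C2 with C6, to 0.56, for C1qb with C3, and C1qa with C1qb had 0.52.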

How the data were processed

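Per the file headers and the labels' protocols, the deposited values are intensities: the median foreground minus background of 1 scanner channel per sample, on Agilent rat whole-genome arrays with up to 2 samples an array, and a flag per spot. The authors also deposited a table of log2 values, whose normalisation is not given in the sources used here; it served as an alternative.

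Intensities of 41372 gene spots in 72 columns were quantile-normalised to the median of the sorted columns. The mean as target was set aside because 1 column dominates it, a choice made after seeing the data. After a floor of 50 and the log2, a probe stayed in if it passed 100 in 3 or more samples, repeat spots gave their average, and a gene took its brightest probe by mean level. Probes were named through a RefSeq table of GRCr8 (45.2% of 41012 probes). Windows of 430 consecutive spots with a rank correlation under 0.3 with the median column were called misread. limma 3.58.1 (R 4.3.3) was fitted to 15 groups and a dye term (dyes as in the headers), and p-values were adjusted by Benjamini-Hochberg over all 36377 genes. The script was tested on simulated data.

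The named genes were the 7 in every comparison, the other complement genes past the threshold or, in a comparison, at either end (the rule's further 1 at each end is left unnamed), and the 3 genes most alike. One of the other complement genes counts in the totals but is not reported here. The genes and lists were chosen with earlier results of these data known. Same-numbered severed and sham samples deviated together (correlation over 0.1) in 25 of 28 pairs, and 23 pairs shared an array. Alternatives are given in the closing section.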

Additional observations from a re-analysis of the deposited data

Results flagged for a closer look

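Cfi differed between severed and sham ligament in opposite directions on days 10 and 14, and the difference of the 2 differences, day 14 minus day 10, was 5.64 (log2), with every severed sample below every sham sample on day 10 and above on day 14. Whether the day 10 columns carry the right label could not be checked.

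Of 91 combinations of gene and group with 4 to 10 samples, 21 held a sample far from the others by Dixon's criterion. For normally distributed values chance gives this in about 1 of 20. Where all other samples stood at the floor, any higher value meets the criterion. This holds for C1qb in sham day 2 replicate 5, C1qa in fibroblast replicate 1 and C6 in fibroblast replicate 5. Of the 21 samples, 12 had a spot that was not found or lay in a misread window. They were for C1qb unmanipulated replicate 1, severed day 1 replicate 2 and sham day 1 replicate 2 (each 5.64, with the other 4 samples at 11.5 or higher), and fibroblast replicate 1 (11.85, others at most 8.31). For Cfd they were severed day 4 replicate 1 and sham day 4 replicate 1, which share an array (each 5.64, others at least 12.99). For C1qa they were severed day 2 replicate 2 (6.56, others at least 11.01), sham day 4 replicate 1 (7.96, others at least 11.18), severed day 14 replicate 1 (8.90, others at least 11.55) and sham day 14 replicate 1 (6.45, others at least 11.26). C3 in sham day 10 replicate 4 and C2 in sham day 4 replicate 3 stood at 5.64, with the others at 8.44 and 9.12 or higher. C1qb in sham day 2 replicate 5 (12.94) was the one found spot of a group otherwise at 5.64.

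The remaining samples were found and outside misread windows. Sham day 10 replicate 2 was high for Cfd (15.18, others at most 12.08) and for C6 (12.69, others at most 10.78). C6 was also high in severed day 1 replicate 5 (11.84, others at most 10.55), in sham day 4 replicate 2 (12.74, others at most 12.39) and in fibroblast replicate 5 (6.55, others at 5.64). C1qa was at 7.04 in fibroblast replicate 1, with the others at 5.64. Cfi was low in unmanipulated replicate 5 (6.64, others at least 7.95) and in sham day 1 replicate 5 (6.53, others at least 7.68).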

How the results depend on the processing

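Calls of the 7 genes were recomputed under 16 other settings and with each of 72 columns left out. The mean target, found spots only, the labels' dyes for day 2, and leaving out dye term and misread windows together were chosen after seeing the data. Of 1967 values of single genes under the other settings, 1829 stayed on their side of the threshold with the same sign or a shift under 1 SE, 86 uncalled values changed sign by more than that, 49 passed the threshold (some by the unadjusted permutation p), 2 lost a call and 1 reversed. Leaving out a column gained 4 calls and lost 0. Without the dye term, 1 gene (Cfi) was called on day 10 and 1 on day 14 for severed minus sham; without the dye term and misread windows together, 1 (Cfi) was called on each of days 7, 10 and 14. Against unmanipulated ligament, severed day 7 gave 1 call (Cfi) without the 2 poor columns, without misread windows, without both dye term and misread windows, and in the authors' normalised table, and 2 (C1qb, Cfd) over found spots; severed day 10 gave 1 (C3) with median scaling and 2 (C3, Cfd) in the authors' table; severed day 14 gave 1 (Cfi) without the 2 poor columns, without misread windows, over found spots, and without dye term and misread windows, and 4 (C1qb, C3, Cfd, C6) in the authors' table; sham day 4 gave 1 (C3) with median scaling. Severed day 14 minus day 7 gave 1 (C3) in the authors' table and between 0 and 1 with a column left out; C6 was called without severed day 7 replicate 1 (adjusted p = 0.019). Severed day 4 minus day 1 gave 1 (Cfi) without the 2 poor columns, without misread windows, and without dye term and misread windows, 2 (Cfi, C3) over found spots, and between 0 and 1 with a column left out (Cfi without severed day 4 replicate 4 or 5, adjusted p = 0.0155 and 0.0424). C3 there reversed, to 1.31 over found spots (adjusted p = 0.043), against -0.35 ± 0.71 over all spots. Found spots include misread windows. The 1.31 thus includes severed day 4 replicate 4 at 12.21, in a misread window, beside 8.55 and 8.62 in replicates 2 and 5. The calls of C1qb and Cfd over found spots on severed day 7 likewise include the misread replicate 2 (7.66 and 6.63). Sham day 14 minus day 10 gave 0 with median scaling (Cfi -3.10) and in the authors' table (Cfi -2.43). Fibroblast minus unmanipulated gave 5 over found spots and 5 in the authors' table. Unmanipulated ligament minus reference RNA gave between 4 and 6 over the other settings. The lowest adjusted p (limma) there was 0.0137 for C3, 0.0404 for Cfi and 0.00326 for C1qb. The causes of these changes were not tested. With the replicate number as a block, Cfi was 2.89 ± 0.94 on day 14 and -2.75 ± 0.94 on day 10 (adjusted p = 0.601 and 1). Day 14 minus day 10 was then 5.64 ± 0.82 (adjusted p = 6.02e-05), and the block changed no call of the 7 genes. Correlations of same-numbered pairs ran from -0.24 to 0.91. The lowest, 0.02 on day 4 and 0.11, -0.07 and -0.24 on day 7, were of pairs that shared no array. Pairs on the same array had 0.29 or more. Replicates 4 and 5 of day 4 and all of day 7 were thus not blocked by array. Cfi day 14 minus day 10 ran from 4.08 to 6.34 over all settings and stayed called. The mean as quantile target changed no count of members called among the 7. Over all genes, calls for fibroblast minus unmanipulated ran from 1693 (mean target) to 11558 (authors' table), against 2669, and those for sham day 14 minus day 10 from 4 (median scaling) to 4874 (found spots), against 923.

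Signal over background limits C1qb and C3, which failed on many arrays, and values at the floor give only lower limits of a difference. The dye correction rests on 6 columns, which stood at the floor for C1qa and not far above it for C2, Cfd and Cfi. Severed day 7 rests on 2 readable columns.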
